A study of Mus musculus with 12 samples.

Results

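The cornified envelope genes of mouse periocular skin were followed in RNA-seq counts from 8 libraries, 4 of them labelled ft/ft and the other 4 ft/ftMyD88-/-. Members were taken by name: every gene whose symbol begins with Sprr or Lce and a number, plus *Lor*, *Ivl*, *Tgm1*, *Tgm3*, *Tgm5*, *Evpl* and *Ppl*, leaving out names that end in -ps. The rule took 43 of the 21247 genes in the table and left out 1 name (*Sprr2j-ps*). By role they were 2 Sprr1, 11 Sprr2 and 2 other Sprr genes (*Sprr3*, *Sprr4*), 14 Lce1, 6 Lce3 and 1 Lce6 gene, *Lor* and *Ivl*, 3 transglutaminases and 2 plakins. All 43 passed the filter of at least 10 counts summed over the 8 libraries, and none of the rule's conditions used a measured value. *Sprr2g* was kept by its name, although RefSeq marks it as a transcribed pseudogene.

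The ft/ft mice carry the flaky tail allele of filaggrin (*Flg*), a point mutation that arose spontaneously and abolishes function, with the matted (*ma*) mutation of *Tmem79* bred out. The ft/ftMyD88-/- mice came from crossing them with mice that lack MyD88, the adaptor protein of toll-like and IL-1 receptors, in the whole body. Both groups are therefore filaggrin-deficient, both are on a BALB/c background, and both were sampled at 6 weeks of age. The study reports that all ft/ftMyD88-/- mice had inflamed periocular skin by that age, with a thicker epidermis. It saw no inflammation by eye in ft/ft mice. WT skin was not analysed here. The biopsies were whole periocular skin, so epidermis, hair follicles, glands, dermis and muscle enter each library together.

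The labels and the expressed genes differed in ways that touch every value given here, which are CPM (counts scaled to a common library size with edgeR's TMM factors). Fold changes are those of the edgeR fit, ft/ftMyD88-/- over ft/ft. The study describes its mice as female, while *Xist*, transcribed from the inactive X chromosome, had 1, 0, 0 and 0 counts under the ft/ft label but 49.8, 46.3, 66.8 and 34.6 CPM under the ft/ftMyD88-/- label. The Y-linked gene *Ddx3y* went the other way, from 65.0 ± 8.97 (SD, n = 4) to 0.147 ± 0.225 (SD, n = 4) CPM, so genotype and sex cannot be told apart. *Myd88* was higher in the libraries labelled ft/ftMyD88-/- (30.7 ± 4.74 (SD, n = 4) to 41.2 ± 7.29 (SD, n = 4) CPM; log2 fold change 0.42, SE 0.14, adjusted p = 0.0484), with overlap between the groups. That call was lost with limma voom and in 6 of the 8 omissions of 1 library (adjusted p up to 0.136), and counts per gene do not show whether part of the gene is deleted. *Flg* itself had 48.3, 199, 54.2 and 112 CPM against 273, 191, 229.8 and 273 CPM, with overlap between the groups. *Tmem79* fell from 59.2 ± 2.92 (SD, n = 4) to 16.4 ± 2.10 (SD, n = 4) CPM (log2 fold change -1.85, SE 0.10, adjusted p = 5.08e-07). *Tmem79* lies on chromosome 3, 3.75 Mb from *Lor*. The part of sex and of any linked alleles in the differences was not tested.

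The cornified envelope is the protein shell that replaces the plasma membrane of keratinocytes as they die at the skin surface. Envoplakin (*Evpl*), periplakin (*Ppl*) and involucrin (*Ivl*) form its scaffold, loricrin (*Lor*) makes up most of its mass in interfollicular skin, and small proline-rich (Sprr) and late cornified envelope (Lce) proteins are added as cross-bridges and late components. Transglutaminases join these proteins by isopeptide bonds. Most of the genes sit together in the epidermal differentiation complex, and Sprr and Lce3 genes are known for induction in stressed, wounded or inflamed epidermis.

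In these data 38 members lay in that complex on chromosome 3 (GRCm38.p6, chr3:92080271-93019061, 939 kb). Of the members there, *Lor* (chr3:92080271-92083142) lay at one end and *Lce1m* (chr3:93017807-93019061) at the other, with *Sprr2d* (chr3:92339140-92340873), *Sprr1b* (chr3:92436808-92438817) and *Lce3d* (chr3:92957390-92958574) between them. *Tgm3* and *Tgm5* lay on chromosome 2, *Evpl* on 11, *Tgm1* on 14 and *Ppl* on 16. The 250 bases before the annotated start of a gene, taken from RefSeq (GRCm38.p6), are printed here on the strand of the gene for members that moved in opposite directions and for members of the Sprr2 family. They were chosen after the values were seen. Capitals mark the AP-1 motif (TGANTCA), the octamer (ATGCNAAT) and the TATA box (TATAAA), each searched on both strands.
Sprr2d: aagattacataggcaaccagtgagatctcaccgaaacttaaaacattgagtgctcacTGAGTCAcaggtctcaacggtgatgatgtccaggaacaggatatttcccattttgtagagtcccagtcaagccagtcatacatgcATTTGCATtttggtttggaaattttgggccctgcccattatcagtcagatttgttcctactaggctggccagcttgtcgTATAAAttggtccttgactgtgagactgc
Sprr2e: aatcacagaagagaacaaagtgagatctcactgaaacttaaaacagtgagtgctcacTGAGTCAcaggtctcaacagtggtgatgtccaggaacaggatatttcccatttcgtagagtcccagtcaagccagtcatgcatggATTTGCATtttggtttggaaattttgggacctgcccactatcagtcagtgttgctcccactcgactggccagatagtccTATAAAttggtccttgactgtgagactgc
Sprr2k: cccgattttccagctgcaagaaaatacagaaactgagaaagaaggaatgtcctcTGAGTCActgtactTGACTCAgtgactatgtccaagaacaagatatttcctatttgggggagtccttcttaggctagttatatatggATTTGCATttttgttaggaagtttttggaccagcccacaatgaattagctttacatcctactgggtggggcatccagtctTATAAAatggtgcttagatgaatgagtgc
Sprr1b: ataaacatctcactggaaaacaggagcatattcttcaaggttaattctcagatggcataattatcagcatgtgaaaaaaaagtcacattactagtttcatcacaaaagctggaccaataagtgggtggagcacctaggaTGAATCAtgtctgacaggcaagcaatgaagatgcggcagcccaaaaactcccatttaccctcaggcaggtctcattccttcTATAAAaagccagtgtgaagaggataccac
Lor: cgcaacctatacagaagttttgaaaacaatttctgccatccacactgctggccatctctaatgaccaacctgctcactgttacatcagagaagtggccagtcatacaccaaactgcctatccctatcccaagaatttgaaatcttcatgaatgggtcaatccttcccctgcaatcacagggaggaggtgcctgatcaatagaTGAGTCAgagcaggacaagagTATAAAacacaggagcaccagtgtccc
Lce3e: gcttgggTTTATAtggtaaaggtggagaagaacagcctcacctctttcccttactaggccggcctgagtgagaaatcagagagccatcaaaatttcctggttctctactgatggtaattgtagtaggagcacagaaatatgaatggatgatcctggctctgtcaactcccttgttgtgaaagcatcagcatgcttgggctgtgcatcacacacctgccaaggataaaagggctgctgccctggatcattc
Lce3d: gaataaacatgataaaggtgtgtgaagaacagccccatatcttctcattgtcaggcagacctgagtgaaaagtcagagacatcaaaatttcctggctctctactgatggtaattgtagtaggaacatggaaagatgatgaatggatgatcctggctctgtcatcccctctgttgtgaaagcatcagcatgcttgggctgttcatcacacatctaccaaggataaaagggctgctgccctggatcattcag
Lce1m: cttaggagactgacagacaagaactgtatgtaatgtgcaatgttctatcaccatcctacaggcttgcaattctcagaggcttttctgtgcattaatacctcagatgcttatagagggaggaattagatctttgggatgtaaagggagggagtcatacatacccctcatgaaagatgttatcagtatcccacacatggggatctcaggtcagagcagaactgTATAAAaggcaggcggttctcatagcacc

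These windows lie at chr3:92338890-92339139, chr3:92351893-92352142 and chr3:92432332-92432581 on the plus strand for the Sprr2 genes, at chr3:92438780-92439029 on the minus strand for *Sprr1b* and at chr3:92083143-92083392 on the minus strand for *Lor*. Those of *Lce3e* and *Lce3d* lie at chr3:92966811-92967060 and chr3:92957140-92957389 on the plus strand, and that of *Lce1m* at chr3:93019062-93019311 on the minus strand. Entries were found for 39 of the 43 members, with 40 windows in all. An AP-1 motif, the site bound by Fos and Jun proteins, stood in 11 of the 40 windows (27.5%), against 6.75% of the 32851 promoters of the table at the same length. The octamer, the site of POU factors such as Pou2f3, stood in 7 (17.5%, against 2.86%), and TATAAA in 17 (42.5%, against 12.4%). The last count takes matches at any position. Where TATAAA occurred in the printed windows it lay 30 to 22 bases before the start, except in *Lce3e*. There the match was on the opposite strand, 243 to 238 bases before the start. A C/EBP motif (TTGCNNAA) stood in 3 (7.5%, against 9.56%).

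The 7 windows with an octamer were all of Sprr2 genes (*Sprr2b*, *Sprr2d*, *Sprr2e*, *Sprr2f*, *Sprr2h*, *Sprr2i* and *Sprr2k*), and these same 7 also held AP-1 and TATAAA, a combination present in 20 of the 32851 promoters (0.0609%). The matches were laid out alike in the 7 genes: AP-1 between 198 and 176 bases before the start, the octamer between 112 and 101, and TATAAA between 29 and 24. The windows of *Sprr2a1*, *Sprr2a2* and *Sprr2a3* held none of the 3 motifs. Their annotated exons were longer, 3003, 2910 and 2883 bases against 609 to 784 for the other Sprr2 genes. The annotated start of these genes, and so the window, need not match that of the family. Whether the motifs lie before another start of these genes was not tested. Both Sprr1 windows, *Lor* and *Ivl* held AP-1 and TATAAA without the octamer. None of the 13 Lce1 windows and none of the 6 Lce3 windows held AP-1 or the octamer. These matches describe letters in a window and show no binding, and windows of one family are alike in sequence, so their matches are not independent.

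The members split between the libraries. Of 43, 7 were called higher in the libraries labelled ft/ftMyD88-/- (16.3%, against 10.9% of all 20454 genes tested), 12 were called lower (27.9%, against 12.3%) and 24 were not called (edgeR's quasi-likelihood test, Benjamini-Hochberg adjusted p under 0.05 over all genes). Called either way were 44.2% of the members and 23.3% of all genes. The higher ones were *Sprr1b*, *Sprr2k*, *Lce3b*, *Lce3c*, *Lce3d*, *Lce3e* and *Lce3f*. The lower ones were *Lor*, *Lce1a1*, *Lce1a2*, *Lce1b*, *Lce1c*, *Lce1d*, *Lce1i*, *Lce1l*, *Lce1m*, *Tgm5*, *Evpl* and *Ppl*. Groups without overlap were found for 7 members upwards (12.5% of all genes) and 12 downwards (14.2%), the latter with *Sprr4* and without *Lce1i*. The median log2 fold change was 0.18 over the members and 0.01 over all genes tested. Without normalization factors the median of all genes moved to 0.19, the share of all calls that were higher went from 47.0% to 77.8%, and the members then gave 11 higher (against 22.7% of all genes) and 11 lower (against 6.48%). In whole-skin libraries, fewer cells of a type and less RNA per cell cannot be told apart.

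**Figure D1:**
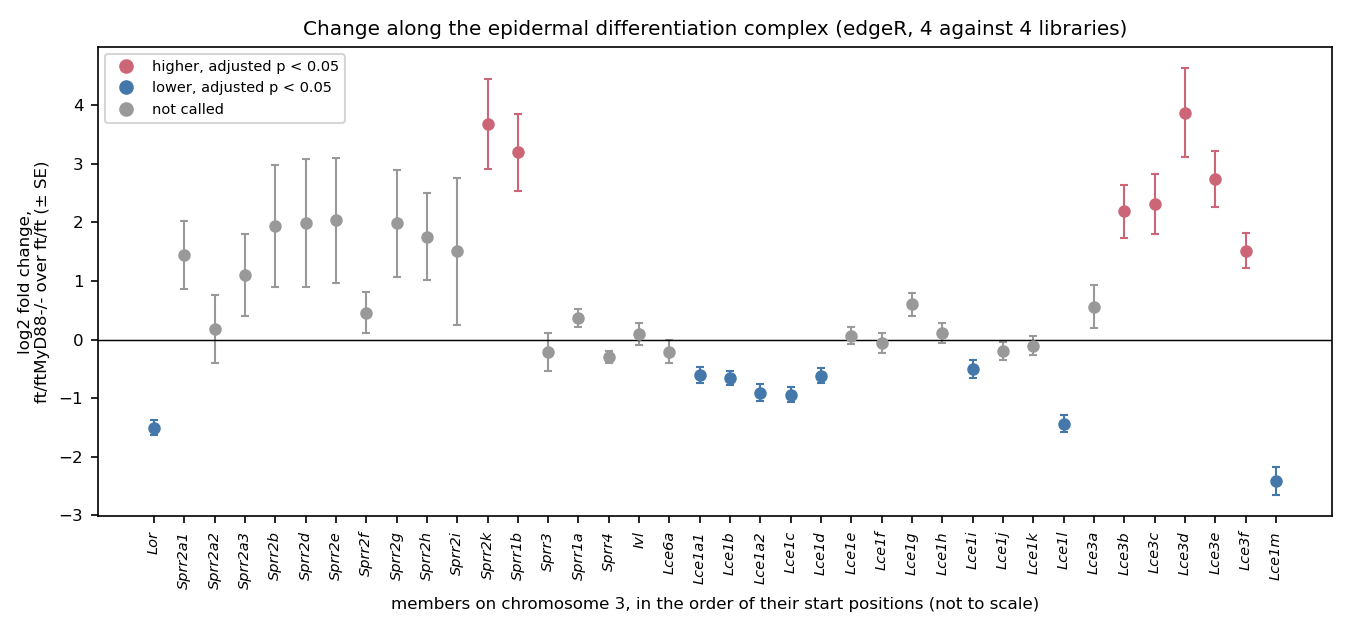
Log2 fold change (ft/ftMyD88-/- over ft/ft) with its standard error for the 38 members on chromosome 3, in the order of their start positions and evenly spaced. The 5 called Lce3 genes (red, 1.51 to 3.87) lie between *Lce1l* and *Lce1m* (blue, -1.44 and -2.41), and the widest error bars are those of Sprr2 genes.

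Loricrin transcripts were lower. *Lor* had 4498, 4139, 4392 and 3091 CPM under the ft/ft label and 1391, 1387, 1425 and 1463 CPM under the ft/ftMyD88-/- label. The groups lay far apart, and the second group varied by little around its mean. The mean fell from 4030.0 ± 644 (SD, n = 4) to 1417 ± 35.3 (SD, n = 4) CPM, 2.84-fold (log2 fold change -1.51, SE 0.13, adjusted p = 2.3e-05 by edgeR). *Ivl*, a scaffold protein laid down before loricrin, had 144, 186, 114 and 149 CPM against 207, 122, 128 and 177 CPM. Its groups overlapped (log2 fold change 0.10, SE 0.19, adjusted p = 0.748). The ratio of *Lor* to *Ivl* CPM within a library was 20.8 to 38.4 in ft/ft, against 6.72 to 11.3 in ft/ftMyD88-/-, without overlap.

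The Lce1 genes, whose products enter the envelope late, were lower or did not pass the test. Of 14, 8 were called lower by edgeR (57.1%, against 12.3% of all genes) and 6 were not called, with a median log2 fold change of -0.55. *Lce1m* had 666, 455, 449 and 473 CPM under the ft/ft label and 67.0, 92.9, 142 and 81.1 CPM under the ft/ftMyD88-/- label. Each library of the first group held over 3 times the highest value of the second. The fitted difference was 5.32-fold (log2 fold change -2.41, SE 0.24, adjusted p = 0.000265). *Lce1l* went from 103, 95.4, 74.0 and 84.2 CPM to 25.6, 31.0, 40.1 and 35.2 CPM, 2.71-fold lower (log2 fold change -1.44, SE 0.14, adjusted p = 8.37e-05), with no overlap.

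*Lce1a1* had 280.0, 269, 208 and 216 CPM in ft/ft libraries and 136, 136, 168 and 200.1 CPM in the others. The lowest ft/ft library stood just above the highest of the other group (log2 fold change -0.61, SE 0.14, adjusted p = 0.00997). *Lce1c* had 226, 216, 179.9 and 181 CPM against 91.7, 89.1, 107 and 129 CPM (log2 fold change -0.94, SE 0.13, adjusted p = 0.00048). *Lce1a2*, *Lce1b* and *Lce1d* also had groups apart, with log2 fold changes of -0.91, -0.66 and -0.62 and adjusted p of 0.00112, 0.0024 and 0.00461. *Lce1i* was called (log2 fold change -0.50, SE 0.15, adjusted p = 0.0308) although its groups overlapped, and it lost the call in 7 of 15 other analyses. The other 6 (*Lce1e*, *Lce1f*, *Lce1g*, *Lce1h*, *Lce1j* and *Lce1k*) overlapped, with log2 fold changes from -0.20 to 0.60. *Lce1g* was the highest of these, with 27.3, 49.4, 30.3 and 29.9 CPM against 47.9, 47.8, 46.0 and 67.1 CPM, and it fell just outside the threshold (log2 fold change 0.60, SE 0.20, adjusted p = 0.0514). In 7 of 15 other analyses, DESeq2 and limma voom among them, *Lce1g* was called higher, the opposite direction to the called Lce1 genes.

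Along the chromosome, the 5 Lce1 genes nearest to *Lce6a* (*Lce1a1*, *Lce1b*, *Lce1a2*, *Lce1c* and *Lce1d*) were all called lower, and the next 4 (*Lce1e*, *Lce1f*, *Lce1g* and *Lce1h*) were not called. *Lce1m* stands apart from its family, 167 kb beyond *Lce1l* and 24.4 kb from *Lce3f*, with the Lce3 genes in between. The ratio of *Lce1m* to *Lce1g* CPM was 9.20 to 24.4 within ft/ft libraries and 1.21 to 3.09 within the others. Reads of related genes can be misplaced: of all stretches of 50 bases in the exons, the read length of the study, none of *Lce1m* occurs in another gene, but 9.12% to 27.1% of those of the other Lce1 genes do.

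Most Lce3 genes were higher, from low levels. Of 6, 5 were called higher (83.3%, against 10.9% of all genes) and 1 was not called, with a median log2 fold change of 2.25. *Lce3e* had 0.600, 1.16, 0.279 and 0.767 CPM under the ft/ft label and 3.24, 4.23, 2.86 and 9.57 CPM under the ft/ftMyD88-/- label (log2 fold change 2.74, SE 0.48, adjusted p = 0.00341). *Lce3f* had 1.24, 2.07, 1.00 and 1.57 CPM against 3.37, 3.86, 3.10 and 6.95 CPM (log2 fold change 1.51, SE 0.30, adjusted p = 0.00381). In both genes every library of the second group was above every library of the first, and its replicate 4 was highest. *Lce3b* rose from 1.59, 4.26, 0.948 and 1.42 CPM to 7.62, 10.1, 6.74 and 14.0 CPM, 4.55-fold by the fit (log2 fold change 2.19, SE 0.45, adjusted p = 0.0097), and without ft/ft replicate 2 the log2 fold change was 2.84 (adjusted p = 0.00027).

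*Lce3d* showed the largest fold of the family, with 0.514, 1.09, 0.279 and 0.345 CPM against 3.90, 7.28, 3.61 and 19.8 CPM. Groups did not overlap and the fitted fold was 14.6 (log2 fold change 3.87, SE 0.76, adjusted p = 0.011), though replicate 4 of the second group alone held over 2 times the next library. Without that library the log2 fold change was 3.10 (adjusted p = 0.00212), and without ft/ft replicate 2 it was 4.45 (adjusted p = 0.0174). *Lce3c* had 2.44, 5.13, 1.84 and 2.38 CPM against 9.55, 12.9, 8.40 and 28.9 CPM (log2 fold change 2.31, SE 0.51, adjusted p = 0.0171). Its call was lost without replicate 1 or replicate 4 of the ft/ft libraries (adjusted p up to 0.0556). *Lce3a* had 10.0, 12.4, 4.02 and 6.36 CPM against 8.90, 12.9, 9.19 and 18.0 CPM, overlapped, and was not called (log2 fold change 0.56, SE 0.36, adjusted p = 0.308). Per kilobase of exon it had the highest mean of the family in the libraries labelled ft/ft (14.9 ± 6.81 CPM per kb, SD, n = 4, with *Lce3c* next at 5.20 ± 2.61) and the second highest in the others (22.3 ± 7.72, after *Lce3c* at 26.3 ± 16.8), with overlap between both genes in each group. Per gene the split of reads is uncertain, since *Lce3c*, *Lce3d*, *Lce3e* and *Lce3f* share 35.7% to 49.3% of their 50-base stretches with another gene, mostly with each other. Summed over the family, the level was 16.4, 26.1, 8.37 and 12.8 CPM against 36.6, 51.2, 33.9 and 97.1 CPM, again without overlap. The sum does not depend on how counted reads are divided among the genes. It still lacks any read that was left uncounted because it matched several genes.

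The 2 Sprr1 genes differed from each other. *Sprr1b* had 8.87, 32.1, 7.20 and 10.2 CPM under the ft/ft label and 84.7, 155, 75.7 and 223 CPM under the ft/ftMyD88-/- label. Replicate 2 stood above the other ft/ft libraries but well below the lowest of the second group. The mean went from 14.6 ± 11.7 (SD, n = 4) to 135 ± 69.0 (SD, n = 4) CPM, with a fitted fold of 9.15 (log2 fold change 3.19, SE 0.66, adjusted p = 0.0174 by edgeR). Without ft/ft replicate 4 the adjusted p was 0.0552, and without ft/ft replicate 2 the log2 fold change was 3.94 (adjusted p = 0.00521). *Sprr1a* had 553, 736, 588 and 577 CPM against 967, 793, 552 and 844 CPM, with overlap (log2 fold change 0.36, SE 0.16, adjusted p = 0.116). Neither gene shares a 50-base stretch with another gene.

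**Figure D2:**
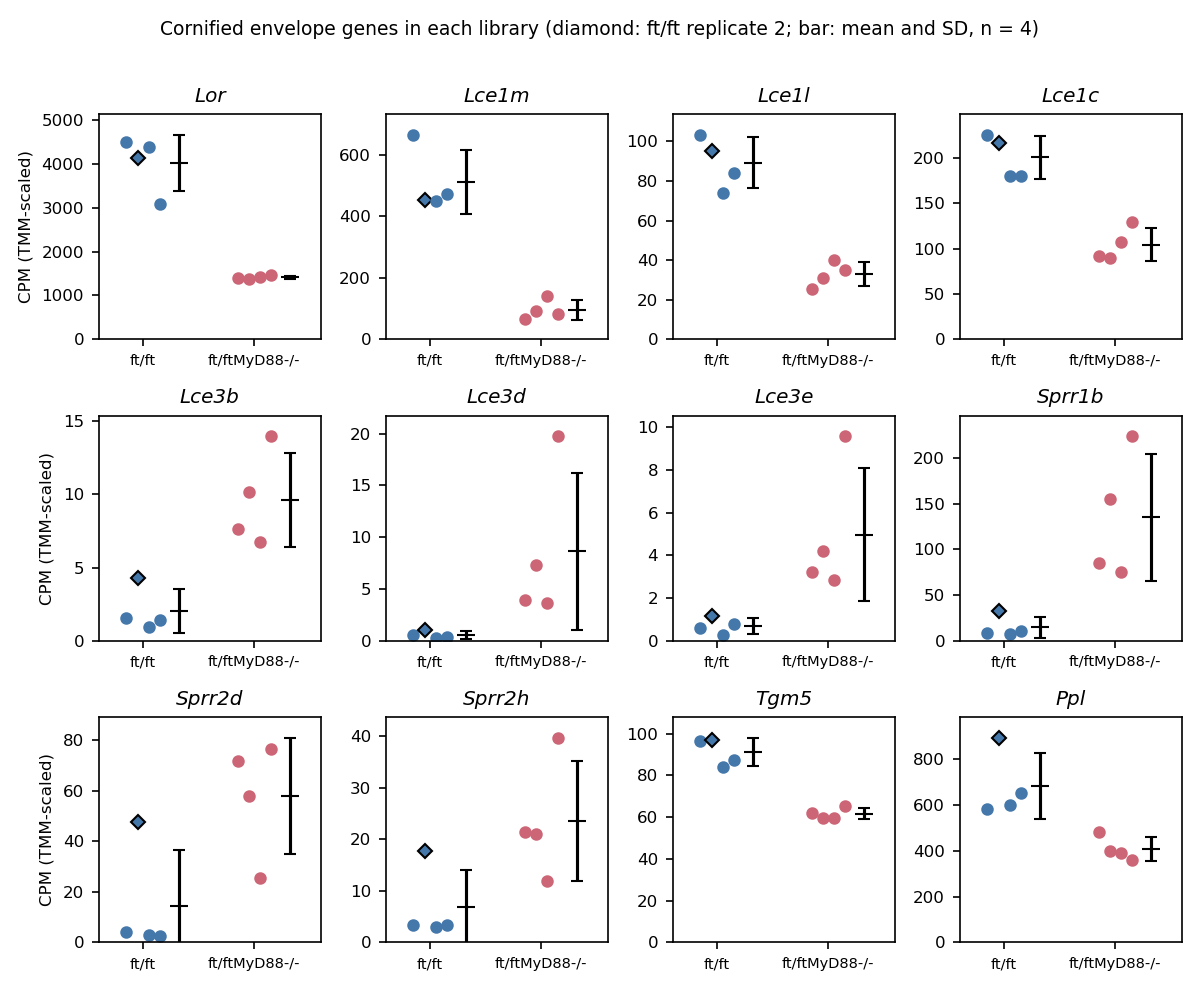
Expression (CPM, scaled by TMM factors) of 12 members in each library on linear axes from 0, with the mean and SD of 4 libraries as a bar beside the points (lower ends are cut at 0). Replicate 2 of ft/ft (diamond) stands with the other ft/ft libraries for *Lor* and *Lce1m*, and near the ft/ftMyD88-/- libraries for *Sprr2d* and *Sprr2h*.

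For the 11 Sprr2 genes the number of calls depended on 1 library and on the test. All 11 had a positive log2 fold change (median 1.76; *Sprr2a2* turned negative without ft/ft replicate 3, ft/ft replicate 4 or ft/ftMyD88-/- replicate 1), yet only *Sprr2k* was called by edgeR (9.09%, against 10.9% of all genes). On the same 8 libraries DESeq2 called 3 of the 11 higher (against 14.9% of all genes) and limma voom 7 (against 10.7%). *Sprr2d*, with the highest CPM, had 4.07, 47.8, 2.90 and 2.61 CPM under the ft/ft label and 71.8, 58.1, 25.7 and 76.4 CPM under the ft/ftMyD88-/- label. Replicate 2 of ft/ft lay inside the range of the second group, while its 3 companions were all under 5 CPM (log2 fold change 1.99, SE 1.09, adjusted p = 0.245). *Sprr2h* had 3.34, 17.7, 2.90 and 3.30 CPM against 21.5, 20.9, 12.0 and 39.6 CPM (log2 fold change 1.76, SE 0.75, adjusted p = 0.144). *Sprr2g* had 0.643, 6.22, 0.390 and 0.728 CPM against 6.75, 8.49, 4.08 and 13.7 CPM, and *Sprr2e* 0.986, 7.46, 0.223 and 0.422 CPM against 7.71, 9.55, 3.88 and 18.0 CPM, with the same single high library (adjusted p = 0.173 and 0.225).

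Replicate 2 was the highest ft/ft library for 35 of the 43 members (81.4%), against 27.5% of all genes tested. It lay inside the range of the ft/ftMyD88-/- libraries for 10 of 11 Sprr2 genes, 1 of 6 Lce3 genes and 4 of 14 Lce1 genes. Its median ratio to the mean of the other ft/ft libraries was 5.58 over Sprr2, 2.22 over Lce3 and 1.22 over Lce1. Neither the share inside that range nor the median ratio was computed over all genes. Groups were apart for only 26.7% of all genes tested, so overlap by itself was common. *Krt16*, a keratin of stressed epidermis, was also highest of ft/ft there (67.2, 253, 46.9 and 49.9 CPM, against 357, 702, 370.3 and 1074 CPM), as was the alarmin gene *S100a8* (8.96, 88.4, 4.41 and 1.53 CPM, against 176, 244, 145 and 405 CPM). Of the other stressed-keratinocyte genes followed, *S100a9* was highest there too, as were *Krt6a* (341, 479, 374 and 288 CPM in ft/ft) and *Krt6b* (422, 602, 366 and 271 CPM), by less. *Krt17* was not (2130, 2239, 2291 and 2175 CPM). With replicate 2 left out, edgeR called 8 of 11 Sprr2 genes higher (against 9.93% of all genes), and the median log2 fold change was 3.58. *Sprr2d* then stood at 4.18 (adjusted p = 0.00285), *Sprr2h* at 2.87 (adjusted p = 0.00412) and *Sprr2g* at 3.76 (adjusted p = 0.00113). Over all members the counts became 16 higher and 11 lower (against 9.93% and 11.2% of all genes). This was 1 of 8 omissions, and with edgeR no other gave more than 2 called Sprr2 genes.

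**Figure D3:**
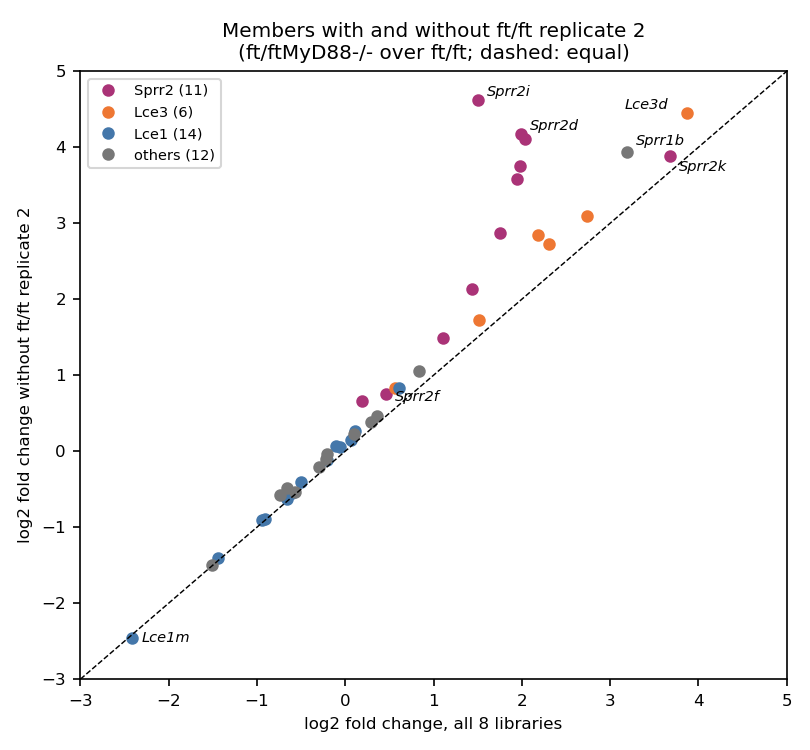
Log2 fold change (ft/ftMyD88-/- over ft/ft) of each of the 43 members from all 8 libraries on the x axis and without ft/ft replicate 2 on the y axis, with the dashed line marking equal values. Lce1 genes lie near the line, and most Sprr2 genes lie above it, *Sprr2i* farthest (1.50 against 4.63).

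*Sprr2k* was barely detected. Its counts were 2, 2, 0 and 1 under the ft/ft label and 3, 29, 15 and 21 under the ft/ftMyD88-/- label. The summed counts of 5 and 68 give a ratio of 13.5 (95% exact interval 5.49 to 42.8, counting error only) and an adjusted p of 0.00535 by edgeR. It was not tested under edgeR's own filter on low counts. *Sprr2a3*, *Sprr2b*, *Sprr2f* and *Sprr2i* overlapped, with log2 fold changes of 1.10, 1.94, 0.46 and 1.50. *Sprr2a1* and *Sprr2a2* were under 2 CPM in every library. Their values are uncertain, as 96.3% and 96.5% of their 50-base stretches occur in another gene, and for *Sprr2a3* 61.1%. *Sprr2g*, *Sprr2h* and *Sprr2k* share none.

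The 2 remaining Sprr genes did not pass the test. *Sprr4* had 163, 224, 178 and 193 CPM under the ft/ft label and 159.7, 151, 145 and 161 CPM under the ft/ftMyD88-/- label. Its groups did not overlap, but the difference was small (log2 fold change -0.30, SE 0.10, adjusted p = 0.053). *Sprr3*, better known from oral and oesophageal epithelium, had 31.3, 32.4, 18.9 and 22.2 CPM against 17.5, 38.5, 18.1 and 15.9 CPM, with replicate 2 of the second group alone at the top (log2 fold change -0.22, SE 0.32, adjusted p = 0.677). *Lce6a*, between *Ivl* and the Lce1 genes, had 20.2, 25.3, 14.2 and 16.3 CPM against 15.9, 12.1, 17.5 and 20.7 CPM and overlapped (log2 fold change -0.21, SE 0.20, adjusted p = 0.489). *Sprr1b* and *Sprr3* are only 17.7 kb apart.

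Of the 3 transglutaminases, 1 was called lower (33.3%, against 12.3% of all genes) and 2 were not called. *Tgm5*, an enzyme of the upper epidermis, had 96.7, 97.1, 83.8 and 87.5 CPM under the ft/ft label and 61.9, 59.6, 59.7 and 65.1 CPM under the ft/ftMyD88-/- label. The groups were apart and tight (log2 fold change -0.57, SE 0.08, adjusted p = 0.000665). *Tgm1*, the membrane-anchored enzyme of the granular layer, had 90.8, 106, 74.8 and 82.3 CPM against 136, 94.8, 81.2 and 121 CPM (log2 fold change 0.29, SE 0.16, adjusted p = 0.224). *Tgm3*, active in both epidermis and hair follicle, had 70.3, 108, 64.1 and 63.1 CPM against 186, 98.7, 94.4 and 167 CPM. Replicate 2 of ft/ft exceeded 2 libraries of the second group, and the test was not passed (log2 fold change 0.84, SE 0.28, adjusted p = 0.0662). *Tgm3* was called higher in 7 of 15 other analyses, with DESeq2, limma voom and the omission of ft/ft replicate 2 among them. The ratio of *Tgm3* to *Tgm5* CPM, taken within each library, was 0.722 to 1.11 in ft/ft and 1.58 to 3.01 in the others.

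*Tgm3* was highest in replicates 1 and 4 of the ft/ftMyD88-/- libraries, which also had the highest sums of hair follicle genes. Over 7 genes of hair shaft and inner root sheath the summed level was 1812 to 2556 CPM in ft/ft and 15570, 2260, 3441 and 8322 CPM in the others. All 7 had positive log2 fold changes (median 1.81), yet 0 were called by edgeR (against 10.9% of all genes called higher). An unadjusted p under 0.05 was found for 7. DESeq2 called 7 higher (against 14.9% of all genes) and limma voom 2 (against 10.7%). The part of hair follicle RNA in the *Tgm3* values was not tested.

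Both plakins, which anchor the envelope to desmosomes and keratin filaments, were lower. *Ppl* had 584, 894, 601 and 654 CPM under the ft/ft label and 482, 402, 392 and 360.5 CPM under the ft/ftMyD88-/- label (log2 fold change -0.74, SE 0.14, adjusted p = 0.00349). *Evpl* had 441, 699, 452 and 465 CPM against 393, 309, 289 and 305 CPM (log2 fold change -0.67, SE 0.16, adjusted p = 0.00995). Neither overlapped. In both genes ft/ft replicate 2 was the highest of all 8 libraries, and without it the log2 fold changes were -0.58 (adjusted p = 0.00556) and -0.48 (adjusted p = 0.0145).

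The make-up of envelope transcripts differed between the groups. Members together took 0.687% to 0.891% of all counts under the ft/ft label and 0.488% to 0.575% under the other. *Lor* alone held 43.0% to 53.0% of the members' counts in the first group and 26.4% to 31.7% in the second. Sprr1 genes held 6.24% to 8.16% of member counts in the first group and 14.0% to 20.2% in the second. Lce3 genes held 0.101% to 0.275% and 0.702% to 1.75%. Lce1 genes, at 20.2% to 25.0% and 17.5% to 24.8%, overlapped in share, as did the plakins. Shares in a fixed total depend on each other, so a lower *Lor* raises the others.

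**Figure D4:**
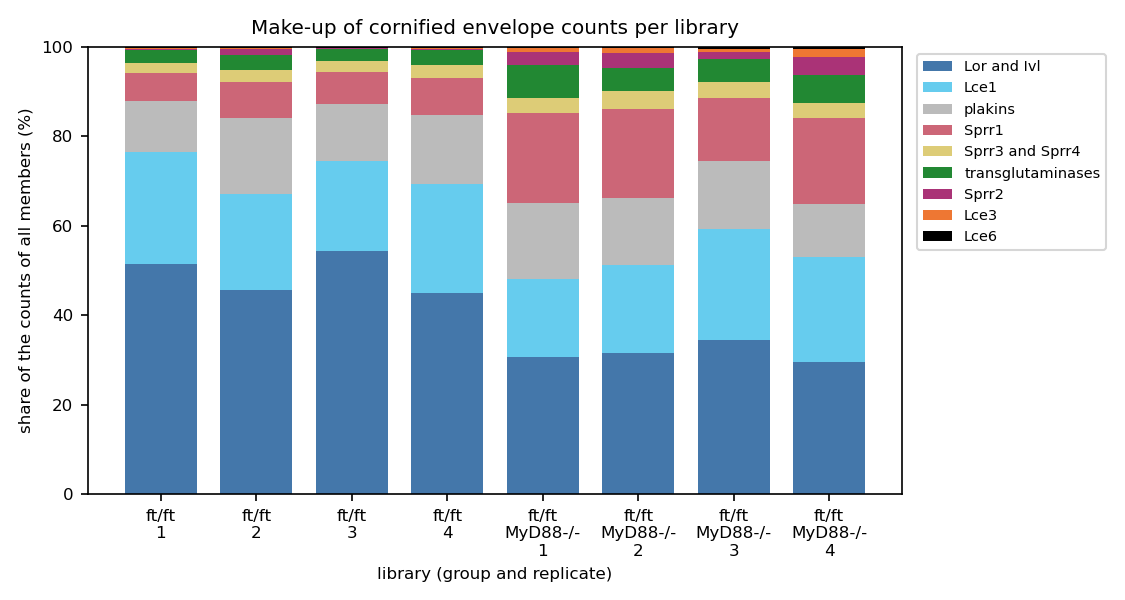
Share of each role group in the summed counts of the 43 members, in percent, as a stacked bar for each of the 8 libraries. *Lor* and *Ivl* together (bottom, dark blue) take 45.0% to 54.3% in ft/ft and 29.6% to 34.6% in ft/ftMyD88-/-, while Sprr1 (red) is wider in all 4 of the latter.

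Levels per kilobase of exon set genes side by side only if reads cover whole transcripts and those from shared stretches are counted. Neither is known here, so the ranks are approximate. On this scale the 4 highest members in the libraries labelled ft/ft were *Lor* (2265 ± 362 CPM per kb, SD, n = 4), *Sprr4* (820 ± 112), *Sprr1a* (761 ± 103) and *Lce1m* (538 ± 110). *Lor* did not overlap with the next, while *Sprr4* overlapped with *Sprr1a*, and *Sprr1a* with *Lce1m*. In the libraries labelled ft/ftMyD88-/- the order was *Sprr1a* (979 ± 216 CPM per kb, SD, n = 4), *Lor* (796 ± 19.8), *Sprr4* (667 ± 32.1) and *Lce1a1* (227 ± 43.6). *Sprr1a* and *Lor* overlapped there, the following pairs did not, and *Lce1m* had gone from rank 4 to rank 11 of 43. *Sprr1b* went from rank 27 to rank 7. The annotated exon length of *Sprr4* is only 231 bases, which may be its coding part alone and would then overstate its level per kb. The ratio of *Lor* to *Sprr1b* CPM was 129 to 610 within ft/ft libraries and 6.55 to 18.8 within the others. For *Lce1m* over *Lce3d* it was 417 to 1610 and 4.10 to 39.5.

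Other proteins of the cornified layer and its junctions were followed as a list of 28 genes, 26 of them in the table. Of these, 3 were called higher (11.5%, against 10.9% of all genes) and 9 lower (34.6%, against 12.3%), with a median log2 fold change of -0.19. *Rptn* (repetin, an S100-fused precursor) had 187, 453, 161 and 180.4 CPM under the ft/ft label and 529, 599, 478 and 829 CPM under the ft/ftMyD88-/- label (log2 fold change 1.31, SE 0.38, adjusted p = 0.0478), and *Casp14*, a protease of filaggrin breakdown, was also higher (log2 fold change 1.10, SE 0.27, adjusted p = 0.0225). *Sbsn* (suprabasin) had 1702, 1614, 1369 and 1463 CPM against 529, 489.8, 642 and 593 CPM (log2 fold change -1.45, SE 0.12, adjusted p = 1.62e-05), and *Flg2* (filaggrin-2) 448, 492, 337 and 417 CPM against 136, 176, 268 and 134 CPM (log2 fold change -1.25, SE 0.22, adjusted p = 0.00431). *Rptn* and *Flg2* thus moved in opposite directions. The desmosomal genes *Dsg1a* and *Dsp* were lower as well (-1.10 and -0.61, adjusted p = 0.000227 and 0.0115).

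Transcription factors of epidermal differentiation were a list of 20, of which 4 were called higher (20%, against 10.9% of all genes), 3 lower (15%, against 12.3%) and 13 neither, with a median log2 fold change of -0.0042. *Fosl1*, which encodes an AP-1 subunit, had 1.54, 2.29, 0.892 and 2.07 CPM under the ft/ft label and 4.38, 4.85, 3.57 and 5.49 CPM under the ft/ftMyD88-/- label (log2 fold change 1.40, SE 0.26, adjusted p = 0.00265). *Elf3* fell from 80.2, 112, 69.4 and 66.3 CPM to 44.6, 56.6, 27.6 and 43.4 CPM (log2 fold change -0.93, SE 0.24, adjusted p = 0.0221). *Pou2f3*, the POU factor of suprabasal keratinocytes, fell from 71.3, 71.1, 61.2 and 67.5 CPM to 42.6, 37.0, 50.3 and 42.4 CPM (log2 fold change -0.65, SE 0.10, adjusted p = 0.000993). Other calls included *Junb* and *Cebpb* upwards (0.49 and 0.48, adjusted p = 0.0134 and 0.00447) and *Ahr* downwards (-0.39, adjusted p = 0.0197). *Klf4* and *Grhl3* overlapped (-0.05 and -0.07). Any link between these levels and the motifs above was not tested.

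Among 10 genes of the NRF2 pathway, which is known to induce some Sprr and Lce genes under oxidative stress, 2 were called higher (20%, against 10.9% of all genes) and 8 were not called, with a median log2 fold change of 0.19. They were *Slc7a11* (log2 fold change 1.18, SE 0.28, adjusted p = 0.0151) and *Gclc* (log2 fold change 0.62, SE 0.12, adjusted p = 0.00443), of cystine uptake and glutathione synthesis. *Nqo1* and *Hmox1*, other standard targets, had log2 fold changes of -0.04 and 0.02 with overlap.

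Keratinocyte markers also differed between the groups. Of 7 suprabasal genes 4 were called lower (57.1%, against 12.3% of all genes), and their summed level was 17638 to 21422 CPM under the ft/ft label and 11158 to 13665 CPM under the other. *Krt10* was among them (log2 fold change -0.58, SE 0.12, adjusted p = 0.0045), *Krt1* was not (log2 fold change -0.10, SE 0.16, adjusted p = 0.702). Of 6 basal genes 5 were called lower (83.3%, against 12.3%), and the sums were 13758 to 16911 CPM and 9586 to 11819 CPM. Of 6 stressed-keratinocyte genes 0 were called by edgeR (against 10.9% of all genes called higher), and 4 were higher with an unadjusted p under 0.05. DESeq2 called 4 higher (against 14.9% of all genes) and limma voom 3 (against 10.7%). The sums of all 6 were 2788 to 3796 CPM and 3587 to 6337 CPM, and *Krt16*, *S100a8* and *S100a9* had groups apart. The part of these differences in the values of *Lor*, Lce and Sprr genes was not tested.

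Markers of other tissues were read against the same shares of all genes, 10.9% higher and 12.3% lower. All 5 T cell genes were called higher (sums of 11.7 to 15.8 CPM and 19.6 to 27.0 CPM), as were 2 of 5 macrophage genes (453 to 584 and 652 to 937) and 1 of 3 neutrophil genes (20.7 to 40.1 and 26.4 to 49.1). The 2 macrophage genes were *Lyz2* (243, 273, 256 and 267 CPM against 401, 431, 577 and 647 CPM) and *C1qa*, whose groups overlapped. *Adgre1*, *Mrc1* and *Csf1r* overlapped and were not called (log2 fold changes of -0.03, 0.27 and -0.21). Lower were 6 of 7 skeletal muscle genes (7389 to 10295 CPM and 2959 to 5588 CPM), 5 of 7 sebocyte genes (5088 to 6000 and 4205 to 5420) and 3 of 5 fibroblast genes (13830 to 28724 and 6802 to 10060). Of 4 adipocyte genes 0 were called by edgeR, DESeq2 or limma voom, and 0 had an unadjusted p under 0.05 (217 to 506 CPM and 177 to 482 CPM). Of 9 genes of conjunctiva and simple epithelium 2 were lower (1501 to 2953 and 1097 to 2093). Of the 2 corneal genes in the table, *Krt12* was at 0 to 0.919 CPM in every library, so the defining corneal keratin was close to absent. *Aldh3a1*, the other, was lower (log2 fold change -1.36, SE 0.16, adjusted p = 0.000191), with sums of 454 to 714 CPM and 177 to 267 CPM. The part of these tissues in the members' values was not tested.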

How the data were processed

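RNA was sequenced from periocular skin of 6-week-old mice in 8 libraries, 4 for each of the labels ft/ft and ft/ftMyD88-/-, each given as 1 mouse by the study. The authors deposited raw counts per gene. The study's methods describe single-end 50-base reads, HISAT and TopHat2 on GRCm38.p6, and HTSeq at default settings. Tool versions are not given in the sources used here. Strand setting and treatment of reads with several matches are not stated beyond the HTSeq defaults. The study describes polyA-selected libraries, whereas GEO's labels give total RNA, a protocol for fixed tissue and Cell Ranger. Which of these descriptions applies to the counts is unclear. Totals were 18941705 to 29255129 counts in ft/ft and 15802957 to 27037997 in ft/ftMyD88-/- (two-sided exact permutation p = 0.457; the smallest possible is 0.0286), so 3 counts equal 0.102 to 0.183 CPM. This limit covers counting error only.

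The 20454 genes with at least 10 summed counts were fitted with edgeR 4.0.16 in R 4.3.3 (TMM factors, robust glmQLFit, glmQLFTest, two-sided, no covariate) and Benjamini-Hochberg adjustment over all of them. CPM are TMM-scaled. Replicates differed by more than counting noise (chi-square per degree of freedom at least 15.1), and none was merged. On simulated data for this comparison (20454 genes drawn, 20171 tested), 187 of 200 genes changed 4-fold and 16 unchanged genes were called. Alternatives were RLE factors, library size only, no filter, edgeR's filterByExpr, DESeq2 1.42.0, limma voom (3.58.1), a block for the replicate number, omission of each library, an adjusted p under 0.01 and a log2 fold change of at least 1.

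Values in each library are given for all members of role groups of up to 5 with a mean of at least 1 CPM, otherwise for the 3 smallest adjusted p and 2 highest means. Members near 0 in a group or without overlap are also named. From the other lists, the 2 highest and 2 lowest called genes are named, and further genes were chosen after their values were seen. A gene that this rule would name is not reported here. Exon lengths and shared 50-base stretches came from GENCODE M21, coordinates and promoters from RefSeq. The members and lists were chosen with earlier results of these data known.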

Additional observations from a re-analysis of the deposited data

Results flagged for a closer look

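Each group of 4 libraries was searched for 1 library far from the other 3 (Dixon's test at 95%) in 96 gene and group pairs, and 17 stood out. Chance marks about 1 in 20 of independent pairs with normal values. Related genes in the same library are not independent, so the 17 cannot be weighed against that rate. In ft/ft, replicate 2 was high for *Sprr1b* (32.1 CPM, the others 7.20 to 10.2), *Sprr2d* (47.8, the others 2.61 to 4.07), *Sprr2e* (7.46, the others 0.223 to 0.986), *Sprr2g* (6.22, the others 0.390 to 0.728), *Sprr2h* (17.7, the others 2.90 to 3.34) and *Sprr2i* (8.66, the others 0.0558 to 0.460). It was also high for *Evpl* (699 CPM, the others 441 to 465), *Tgm3* (108, the others 63.1 to 70.3) and *Lce1g* (49.4, the others 27.3 to 30.3). Replicate 1 of ft/ft was high for *Lce1m* (666 CPM, the others 449 to 473).

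In ft/ftMyD88-/-, replicate 4 was high for the neighbouring genes *Lce1e* (88.5 CPM, the others 62.6 to 64.2), *Lce1f* (154, the others 98.3 to 103), *Lce1g* (67.1, the others 46.0 to 47.9) and *Lce1h* (42.3, the others 28.0 to 29.4). Replicate 2 was high for *Sprr3* (38.5 CPM, the others 15.9 to 18.1). The remaining 2 were single values, each the highest of its group, of sex-linked genes at or near 0 in the other 3 libraries, 0.0429 CPM of *Xist* in ft/ft replicate 1 and 0.482 CPM of *Ddx3y* in ft/ftMyD88-/- replicate 1.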

How the results depend on the processing

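The 7 members called higher became 11 with library size only, 11 with DESeq2, 15 with limma voom, 4 at an adjusted p under 0.01, and 5 to 16 when 1 library was left out, the 16 being without ft/ft replicate 2. The 12 called lower became 3 with a log2 fold change of at least 1 and were 11 to 12 when 1 library was left out. Over all genes, 2239 higher and 2525 lower became 4638 and 1326 with library size only, 951 and 1350 at an adjusted p under 0.01, and 752 and 520 with a log2 fold change of at least 1. Leaving out 1 library gave 1462 (without ft/ft replicate 4) to 2260 higher and 1851 to 2408 lower.

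Of the 43 members, 20 kept direction and call in all 15 analyses other than the stricter thresholds, *Lor*, *Lce1m*, *Lce1l*, *Lce3b*, *Lce3d*, *Lce3e*, *Lce3f*, *Tgm5*, *Evpl* and *Ppl* among them. A call changed for 16, and 6 uncalled members changed sign. With library size only, *Lce1f* stood at 0.12 and *Lce1k* at 0.071 on the log2 scale. Over the omissions of 1 library the log2 fold change ran from -0.050 to 0.23 for *Ivl*, -0.056 to 0.15 for *Lce1e*, -0.23 to 0.058 for *Lce1f*, -0.038 to 0.27 for *Lce1h*, -0.21 to 0.068 for *Lce1k* and -0.16 to 0.66 for *Sprr2a2*. The cause was not tested. *Sprr2k* kept both in the other 14 and could not be tested under filterByExpr, which removed it.

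The groups share the replicate numbers 1 to 4, but same-numbered libraries did not deviate together (correlations of -0.11, 0.022, 0.0040 and -0.012). Of 8 libraries, 0 correlated best with their own number. No pairing by number was seen, although a shared factor of small effect need not show in such correlations. With the replicate block, 9 members were called higher and 11 lower, and 1895 and 2144 of all genes.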
